A study of Mus musculus with 10 samples.

Results

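The question was whether the epidermis of mice lacking gasdermin A responded to a barrier-disturbing rub differently from control epidermis. It was asked gene by gene as a difference of differences: the change from water to olive oil/acetone in the knockout minus the same change in the control, on the log2(value + 1) scale, called the interaction estimate below. A positive estimate means that the gene stood higher under oil/acetone relative to water in the knockout than it did in the control. All 10 RNA sequencing libraries of the series entered, and the genes were the 15469 autosomal genes listed for every library, of 17983 genes listed for any. Of these, 25 fell below the filter on low values (2 or more libraries had to reach 10) and 15444 were tested.

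The cells were keratinocytes released by enzymes from the back skin epidermis on day 5. Control mice were labelled wild type, and the knockout carried the genotype Gsdma1KO/KO;Gsdma3fx/fx;K14-Cre, that is a knockout allele of Gsdma1 in every cell and a floxed Gsdma3 removed by a Cre recombinase. The keratin 14 promoter drives that Cre in basal keratinocytes and in the follicle and gland cells derived from them, so immune, vascular and pigment cells in the preparation lie outside its reach. The labels do not say whether controls carried floxed alleles or Cre. Skin was rubbed 2 times a day for 3 days with acetone and olive oil mixed 4 to 1, or with water. There were 3 oil/acetone libraries and 2 water libraries in each genotype, but the labels do not tie a library to a separate animal. The p-values thus rest on library-to-library spread, part of which may be technical.

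Gasdermins are proteins whose cut amino-terminal part forms pores in membranes, releasing cell contents and inflammatory cytokines. The A-type gasdermins are made mainly in skin, in differentiating epidermal cells and in the hair follicle. The epidermis also houses Langerhans cells, which present antigen on MHC class II, and in mice a dense network of gamma-delta T cells that survey keratinocytes. Interferon-stimulated genes are a shared programme of keratinocytes and immune cells, switched on when nucleic acids or interferons are sensed.

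The targeted genes gave the first check of the labels. Gsdma3 measured 62.5 and 283 normalised reads in the control water libraries and 68.7, 63.1 and 177 in the control oil/acetone libraries. Knockout libraries measured 2.65 and 0 under water and 0, 0.898 and 0 under oil/acetone. Gsdma, the gene called Gsdma1 in the labels, was present in all 10 libraries, at 170 and 170 in knockout water and 260 to 843 in knockout oil/acetone. Reads were summed over the gene, so a deleted exon would not be visible here. The interaction estimate of Gsdma was 0.49 ± 0.67 (SE; limma adjusted p = 0.761), and Gsdma3, which was close to 0 in every knockout library, has no usable one.

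The libraries held 15914663 to 21812292 reads. For the keratinocyte label, the basal keratins Krt5 (211026 to 396203 normalised reads) and Krt14 (156510 to 320163) and the suprabasal keratin Krt10 (98708 to 259311 normalised reads) were high in every library. Markers of blood, vessel, follicle and muscle cells were detected too and are given beside the results. The 9 pigment cell genes tested summed to 2146 and 2742 normalised reads in control water and 1337 to 2219 in control oil/acetone. In the knockout they summed to 2419 and 1457 under water and 2180 to 3149 under oil/acetone. Of these 9, 8 had a positive interaction estimate (all genes 52.2%), with a median of 1.55. Control water replicate 2 stood apart: the 24 hair shaft and inner root sheath genes lay at a median of 3.71 (log2, relative to each gene's 10-library mean) in it and at -1.61 in control water replicate 1. The next highest median of these genes was 2.12, in knockout oil/acetone replicate 2. Reads of the Y-linked genes Ddx3y, Eif2s3y, Uty and Kdm5d were 0 in all 4 water libraries and 239 to 2348 in the 6 oil/acetone libraries, in both genotypes. A treatment change therefore cannot be told apart from a difference between mice with and without a Y chromosome, and the interaction cannot be told apart from such a difference that depends on genotype. In these bulk samples, fewer cells of a type and less RNA per cell cannot be told apart either.

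No gene passed the test of the interaction. With limma, 0 of 15444 genes (0.0%) had a Benjamini-Hochberg adjusted p under 0.05, and the lowest adjusted p was 0.162. An unadjusted p under 0.05 was reached by 1829 genes (11.8%), 952 with a positive estimate (6.16%) and 877 with a negative one (5.68%). When libraries were scaled to equal totals in place of median ratios, the median estimate of all genes moved from 0.03 to 0.19 and 1354 of 1846 such genes were positive. On whole reads, edgeR's quasi-likelihood test also called 0 genes (1880 at an unadjusted p under 0.05), limma-voom with sample quality weights called 2, and DESeq2 called 163 (1.06%), 135 higher and 28 lower. Without control water replicate 1, limma called 73 genes, 59 of them higher and 10 of them hair shaft or inner root sheath genes; without control water replicate 2 it called 1, Dab2 (adjusted p = 0.00959). The control water level then rests on 1 library, taken to vary like the others; Dab2 measured 674 in control water replicate 1 and 29.1 to 69.8 in the other 9. Values below are thus descriptions of direction and size with their errors, and every adjusted p is limma's unless DESeq2 is named.

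A second measure asked for no model. In 236 genes (1.53% of those tested) every control oil/acetone library lay below every control water library while every knockout oil/acetone library lay above every knockout water library. The reverse was found for 130 genes (0.842%). Either order was found in 366 genes (2.37%). The genes of the first kind are called crossing upward below, and those of the second kind crossing downward. With only 3 oil/acetone and 2 water libraries in each genotype, random order alone would put a similar share of genes in each kind. The counts over all genes thus describe orders and are no evidence of a response by themselves.

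**Figure D1:**
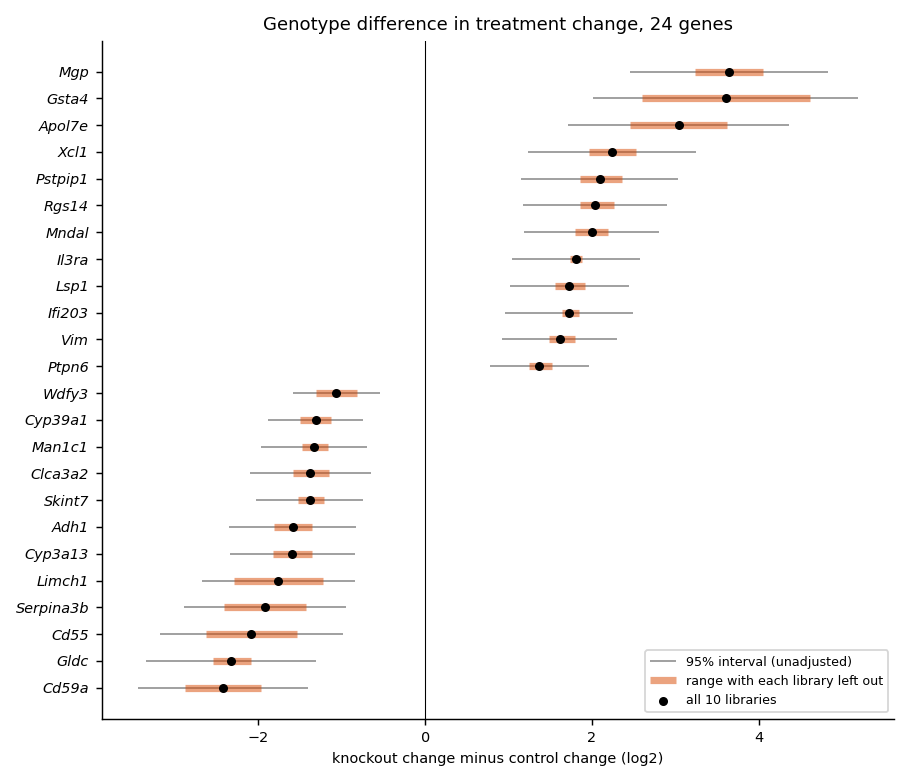
Interaction estimate (knockout change minus control change, log2, horizontal axis) of the 24 genes with the lowest p, 12 in each direction. Points are the fit to 10 libraries, thin lines the unadjusted 95% interval and thick bands the range when each library in turn was left out. All 24 bands stay on their side of 0, and none of the 24 genes passed the adjusted test. The genes were chosen by p and size of estimate in these same libraries, so the kept sign follows largely from that choice.

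The 12 named genes with the lowest p and a positive estimate were Mgp, Mndal, Lsp1, Rgs14, Il3ra, Vim, Ptpn6, Apol7e, Gsta4, Ifi203, Pstpip1 and Xcl1. Their estimates ran from 1.37 to 3.64 (adjusted p = 0.298 to 0.354), and 10 of them crossed upward. In all 12 the knockout water libraries lay below the control water libraries without overlap. The same water values entered the contrast that chose these genes, so this order describes them and tests nothing. In 11 of the 12 control oil/acetone lay below control water, and in 11 knockout oil/acetone lay above knockout water. These orders, too, follow largely from the choice of genes.

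Mgp, which encodes matrix Gla protein, an inhibitor of tissue calcification (chromosome 6, 136872435 to 136875823, GRCm38), had the largest estimate of the 12. Control libraries measured 67.3 and 57.1 normalised reads under water and 29.9, 17.2 and 18.7 under oil/acetone. Knockout libraries measured 14.1 and 25.5 under water and 83.8, 73.7 and 108 under oil/acetone. The order of the treatments was thus opposite in the genotypes with no overlap in either, and the estimate was 3.64 ± 0.54 (SE; adjusted p = 0.298; DESeq2 adjusted p = 5.01e-06), 3.23 to 4.05 with each library left out. Only 5830411N06Rik, a clone-named gene looked at after its values were seen, had a lower p (estimate 2.96 ± 0.38, adjusted p = 0.162).

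Ptpn6, the phosphatase SHP-1 that restrains signalling in blood cells, measured 1016 and 1069 in control water and 578, 619 and 769 in control oil/acetone. In the knockout it measured 597 and 605 under water and 790, 999 and 1158 under oil/acetone. The order of the treatments was again opposite in the genotypes, without overlap in either. Its estimate was 1.37 ± 0.27 (SE; adjusted p = 0.354; DESeq2 adjusted p = 0.00536). Lsp1, an actin-binding protein of lymphocytes and macrophages, measured 478 and 557 in control water, 337, 272 and 249 in control oil/acetone, 316 and 249 in knockout water and 397, 569 and 596 in knockout oil/acetone. Its estimate was 1.73 ± 0.32 (SE), close to those of Pstpip1, a cytoskeletal adaptor of leukocytes (2.09 ± 0.43), Il3ra, the alpha chain of the interleukin-3 receptor (1.81 ± 0.35), and Rgs14, a regulator of G-protein signalling (2.03 ± 0.39). Vim, the intermediate filament of mesenchymal cells and leukocytes, measured 4965 and 5150 in control water and 2929 and 2434 in knockout water, with an estimate of 1.61 ± 0.31 (SE).

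Gsta4, a glutathione transferase that clears products of lipid peroxidation, showed another pattern. It measured 33.6 and 139 in control water, 103, 88.9 and 174 in control oil/acetone, 15.9 and 20.7 in knockout water and 329, 412 and 443 in knockout oil/acetone. Control treatments overlapped and the knockout oil/acetone libraries lay above all others. The estimate was 3.60 ± 0.72 (SE; adjusted p = 0.354), 4.61 without control water replicate 1 (adjusted p = 0.023) and 2.60 without control water replicate 2 (adjusted p = 0.852).

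**Figure D2:**
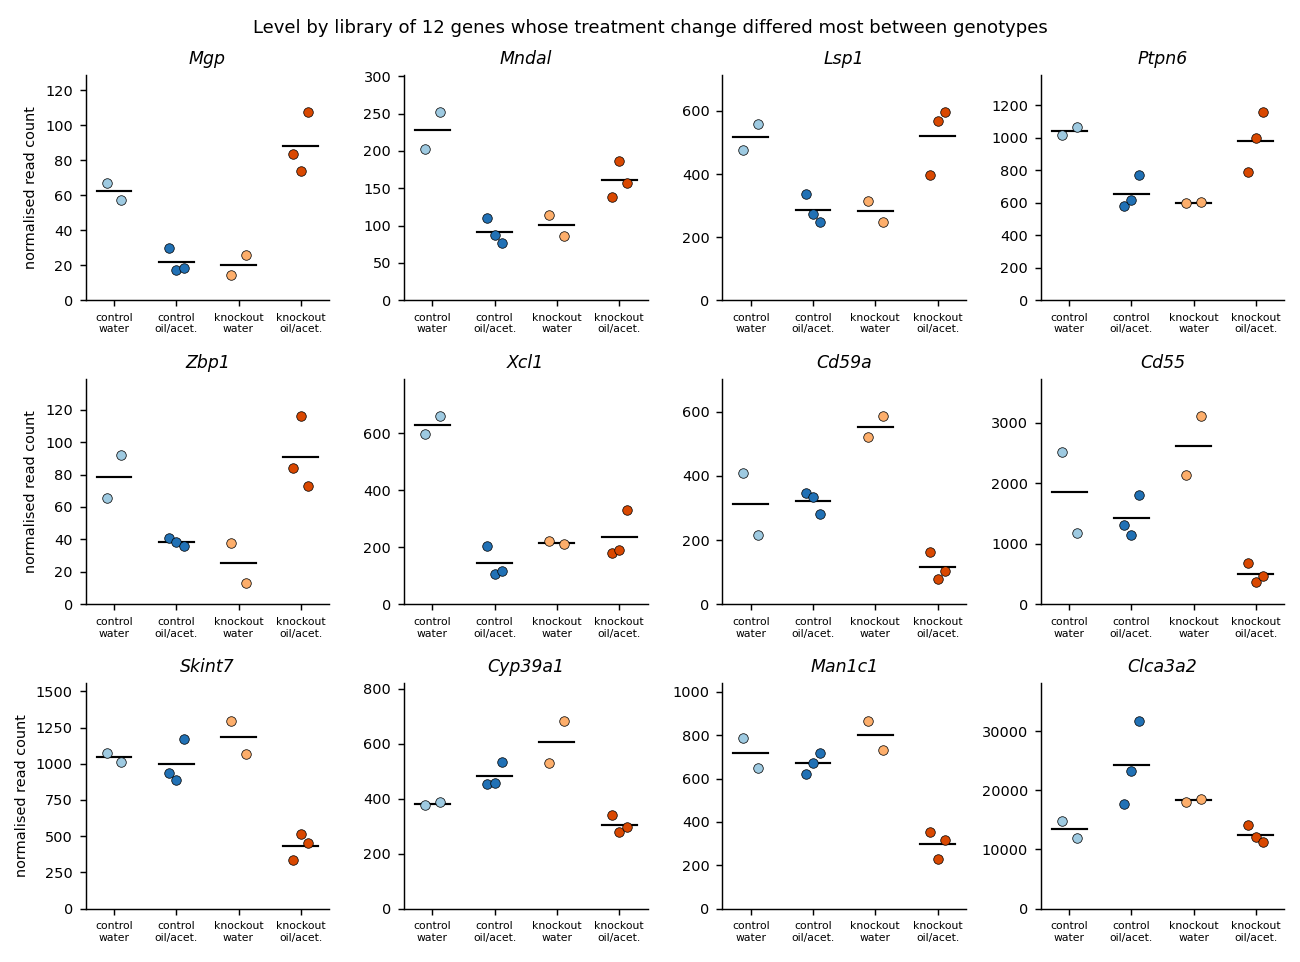
Normalised read count (vertical axis, linear from 0) of 12 named genes in each of the 10 libraries, by group; points are libraries and bars group means. Mgp, Mndal, Lsp1, Ptpn6 and Zbp1 are lower under oil/acetone in control and higher in knockout, Xcl1 is highest in the 2 control water libraries, and the 6 others are lowest, or among the lowest, in the 3 knockout oil/acetone libraries.

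The 12 genes with a negative estimate were Cd59a, Cyp39a1, Gldc, Skint7, Cyp3a13, Man1c1, Adh1, Wdfy3, Serpina3b, Limch1, Cd55 and Clca3a2 (estimates -2.42 to -1.06, adjusted p = 0.354). Here the knockout oil/acetone libraries lay below both the knockout water and the control oil/acetone libraries, without overlap, in 12 of 12. In control skin the treatments overlapped in 8 of the 12 and oil/acetone was the higher in 4. The same values entered the contrast that chose these genes, so these orders describe them and test nothing.

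Cd59a and Cd55 both encode membrane proteins that hold back complement, the first at the membrane attack complex and the second at the convertases. Cd59a (chromosome 2, 104095801 to 104115354) measured 407 and 215 in control water and 346, 335 and 282 in control oil/acetone. In the knockout it measured 520 and 585 under water and 162, 79.9 and 103 under oil/acetone, an estimate of -2.42 ± 0.46 (SE; adjusted p = 0.354; DESeq2 adjusted p = 0.00376). Control levels overlapped between treatments, and knockout levels did not. Cd55 measured 2515 and 1181 in control water, 1311, 1139 and 1804 in control oil/acetone, 2131 and 3105 in knockout water and 679, 374 and 460 in knockout oil/acetone. Its estimate was -2.08 ± 0.49 (SE), with the same pattern of overlap in control and separation in the knockout.

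Of the metabolic enzymes among these 12, Adh1, an alcohol dehydrogenase that oxidises retinol, measured 101 and 139 in control water, 139, 157 and 159 in control oil/acetone, 214 and 269 in knockout water and 97.3, 119 and 89.6 in knockout oil/acetone (estimate -1.59 ± 0.34, SE). Cyp39a1, an oxysterol hydroxylase, crossed downward: 376 and 388 became 452, 458 and 535 in control, and 532 and 685 became 341, 278 and 298 in the knockout (estimate -1.31 ± 0.26, SE). Gldc, the glycine decarboxylase, measured 201 and 264 in knockout water and 50.7, 73.7 and 49.1 in knockout oil/acetone, against 76.8 to 159 over the control libraries (estimate -2.33 ± 0.46, SE). DESeq2 called all 24 named genes of both directions, with adjusted p of 0.0319 or less, and 1.06% of all tested genes. These 24 were chosen by a low limma p for the same contrast in the same libraries, so the DESeq2 calls are no separate support. On the same reads edgeR called 0 genes.

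The interferon-stimulated genes had estimates of 1 sign. Of 38 genes listed, 36 were tested and all 36 had a positive estimate, against 52.2% of all tested genes. The median estimate was 1.90, against 0.03 for all tested genes. The list's median change was -0.32 in control and 1.38 in knockout. An unadjusted p under 0.05 with a positive estimate was reached by 27 of the 36, where the share among all genes was 6.16%; none reached it with a negative one. DESeq2 called 9 of the 36, against 0.874% of all genes in that direction. The median ran from 1.37 to 2.21 with each library left out. Without control water replicate 2, the count at an unadjusted p under 0.05 was 14 of 36 (all genes 3.98%), and without control water replicate 1 it was 31 of 36 (all genes 11.1%).

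Among the sensors, Zbp1, which binds Z-form nucleic acid and can start cell death, crossed upward. Control libraries measured 65.4 and 91.8 under water and 40.8, 38.2 and 36.2 under oil/acetone. Knockout libraries measured 37.9 and 13.4 under water and 83.8, 116 and 72.7 under oil/acetone, an estimate of 2.92 ± 0.60 (SE; adjusted p = 0.354; DESeq2 adjusted p = 0.00428). Ddx58, the RNA sensor RIG-I, crossed upward with a smaller estimate of 0.97 ± 0.27 (SE), while Ifih1, the related sensor MDA5, had 0.52 ± 0.34 (SE; limma adjusted p = 0.515).

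Among the antiviral effectors, Oas1a, an enzyme that makes oligoadenylate to activate RNase L, measured 63.4 and 132 in control water and 83.6, 114 and 35.2 in control oil/acetone. Knockout libraries measured 29.1 and 18.2 under water and 290, 290 and 112 under oil/acetone. Control treatments overlapped, knockout treatments did not, and the estimate was 3.53 ± 0.81 (SE; adjusted p = 0.354; DESeq2 adjusted p = 0.00511). Oas2 had an estimate of 3.69 ± 0.95 (SE) and Mx1, a dynamin-like antiviral GTPase, one of 3.06 ± 0.82 (SE). Oas1a and Oas1g are near-identical neighbours whose reads can be divided between them, so their separate values are uncertain.

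Among the transcription factors of the list, Stat2 had an estimate of 1.23 ± 0.37 (SE), Irf7 of 1.61 ± 0.67 (SE) and Irf9 of 0.66 ± 0.32 (SE). The lowest estimates of the list were those of Usp18, which damps the receptor signal (0.21 ± 0.45, SE), and of Eif2ak2, the kinase PKR (0.13 ± 0.33, SE).

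These promoters are shown because the interferon-activated factor ISGF3 and the IRF family bind a repeated GAAA element. The pattern GAAANNGAAA was searched on both strands in the 250 bases before each gene's start in the RefSeq promoter table (GRCm38.p6). It was present in 936 of 27025 promoters (3.463%) and in 353 of the 10959 tested genes that the table held (3.221%). Of the interferon-stimulated genes tested, 25 were in the table and 11 of these held it; of those with an unadjusted p under 0.05, 9 of 18 held it. The match is the part in capitals, written 5′ to 3′ in the direction of the gene; TTTCNNTTTC is the same pattern on the other strand. A match describes the letters and not a binding site.
Oas1a (chr5:120907526-120907549, minus strand): tcgggaaatgGAAACTGAAAatct
Oas1g (chr5:120887614-120887635, minus strand): tcgggaaatgGAAACTGAAAat
Isg15 (chr4:156200865-156200894, minus strand): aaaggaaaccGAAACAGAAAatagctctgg
Oas3 (chr5:120777715-120777744, minus strand): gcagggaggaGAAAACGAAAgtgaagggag
Bst2 (chr8:71537577-71537606, minus strand): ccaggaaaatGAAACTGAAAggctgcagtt
Ifit1 (chr19:34640794-34640823, plus strand): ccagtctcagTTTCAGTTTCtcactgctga
Rsad2 (chr12:26456553-26456582, minus strand): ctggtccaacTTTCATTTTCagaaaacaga
Stat2 (chr10:128270266-128270295, plus strand): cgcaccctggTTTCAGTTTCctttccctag
Trim30a (chr7:104465210-104465239, minus strand): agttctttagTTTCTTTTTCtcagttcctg
The estimates of these 9 genes ran from 1.23 (Stat2) to 3.53 (Oas1a and Rsad2), and that of Rsad2 from 1.71 to 5.35 with each library left out. Isg15, a ubiquitin-like modifier, measured 393 and 409 in control water, 414, 237 and 75.8 in control oil/acetone, 214 and 179 in knockout water and 625, 631 and 216 in knockout oil/acetone, so knockout oil/acetone replicate 3 stayed near the water level (estimate 2.20 ± 0.89, SE).

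The PYHIN genes are a cluster of nucleic-acid sensors and regulators on chromosome 1 in the mouse. Of 16 listed, 11 were tested and 10 had a positive estimate, with a median of 1.28 against 0.03 for all tested genes. Their median change was -1.20 in control and 0.38 in knockout. An unadjusted p under 0.05 was reached by 5 with a positive estimate (all genes 6.16%) and by 1, Ifi202b, with a negative one (all genes 5.68%). Their 250-base promoters were in the table for 10 of the 11, and 7 held the GAAANNGAAA pattern. The 4 stretches below belong to those with a positive estimate and an unadjusted p under 0.05, with the match in capitals.
Mndal (chr1:173880204-173880233, minus strand): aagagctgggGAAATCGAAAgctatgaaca
Ifi203 (chr1:173942508-173942537, minus strand): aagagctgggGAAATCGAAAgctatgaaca
Ifi213 (chr1:173599326-173599355, minus strand): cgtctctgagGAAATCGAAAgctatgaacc
Ifi207 (chr1:173741831-173741860, minus strand): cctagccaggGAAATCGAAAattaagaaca
The stretches of Mndal and Ifi203 are the same letters, the annotated spans of these neighbours overlap, and reads may be divided between them, so their separate values are uncertain. Of the 13 stretches shown for interferon-stimulated and PYHIN genes, 10 have the match within 100 bases of the start.

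Mndal measured 203 and 252 in control water and 110, 87 and 76.9 in control oil/acetone. In the knockout it measured 115 and 86.4 under water and 139, 187 and 158 under oil/acetone. The estimate was 1.99 ± 0.37 (SE; adjusted p = 0.354; DESeq2 adjusted p = 0.00149), and Ifi203 had 1.72 ± 0.35 (SE). Both crossed upward, and in both the highest libraries were those of control water. Ifi202b was the exception, at 12950 and 7338 in control water, 20734, 11223 and 4094 in control oil/acetone, 16168 and 13357 in knockout water and 7322, 2428 and 1877 in knockout oil/acetone (estimate -2.20 ± 0.94, SE; adjusted p = 0.404). Aim2, the inflammasome sensor of the family, had 0.75 ± 0.38 (SE).

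Langerhans and dendritic cell genes had positive estimates too, with lower levels in control oil/acetone than in control water. All 20 were tested, 20 had a positive estimate, and the median was 1.50. The median change was -1.12 in control and 0.44 in knockout. In 14 the unadjusted p was under 0.05 with a positive estimate (all genes 6.16%), in none with a negative one, and 9 of the 20 crossed upward, where 1.53% of all genes did. Their summed level was 22908 and 58351 in control water, 16913 to 23859 in control oil/acetone, 29284 and 31283 in knockout water and 33739 to 56696 in knockout oil/acetone, and no member was at 0 in any group. Control water replicate 2 was the highest library; without it 6 of the 20 had an unadjusted p under 0.05 (all genes 3.98%) and the median estimate was 0.74. Without control water replicate 1 the values were 15 (all genes 11.1%) and 2.20.

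Cd74, the invariant chain of MHC class II, measured 4679 and 14538 in control water, 4454, 4078 and 3674 in control oil/acetone, 6708 and 6494 in knockout water and 7320, 13490 and 8891 in knockout oil/acetone. It crossed upward with an estimate of 1.56 ± 0.56 (SE; adjusted p = 0.376), 0.74 to 2.38 with each library left out. H2-Ab1, a class II beta chain, crossed upward as well (1.48 ± 0.54, SE, and 0.68 to 2.28 with each library left out). Cd52, a surface glycoprotein of leukocytes, measured 533 and 747 in control water, 425, 295 and 253 in control oil/acetone, 347 and 322 in knockout water and 428, 750 and 722 in knockout oil/acetone (estimate 1.87 ± 0.41, SE; DESeq2 adjusted p = 0.00881). Ctss, the protease cathepsin S that trims the invariant chain, had 1.97 ± 0.53 (SE). By contrast Cd207, langerin, the defining marker of Langerhans cells, had 0.57 ± 0.62 (SE; limma adjusted p = 0.692) and Epcam 0.26 ± 0.37 (SE). The estimates thus differed widely within the list. Whether the number of these cells differed was not tested.

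Epidermal T cell genes had smaller and less separated estimates. All 22 tested had a positive one, with a median of 1.04, and the median change was -1.21 in control and 0.06 in knockout. An unadjusted p under 0.05 was reached by 7 (all genes 6.16%). The count was 10 without control water replicate 2 (all genes 3.98%). It was 3, with a median of 0.68, without control water replicate 1 (all genes 11.1%), the library with the highest level of this list (1.09 relative to gene means, log2). Xcl1, the chemokine lymphotactin that these cells make, measured 596 and 660 in control water, 204, 108 and 119 in control oil/acetone, 220 and 212 in knockout water and 181, 191 and 331 in knockout oil/acetone. Control water stood apart from the other 3 groups, and the estimate was 2.24 ± 0.46 (SE; adjusted p = 0.354; DESeq2 adjusted p = 0.00479). Gzmc, a granzyme of activated cytotoxic cells, crossed upward with 286 and 910 in control water, 211, 52.6 and 104 in control oil/acetone, 159 and 117 in knockout water and 363, 186 and 376 in knockout oil/acetone (estimate 3.37 ± 0.84, SE). The receptor genes themselves had smaller estimates: Trdc, the delta constant region, 0.63 ± 0.66 (SE), and Cd3e 0.80 ± 0.57 (SE).

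**Figure D3:**
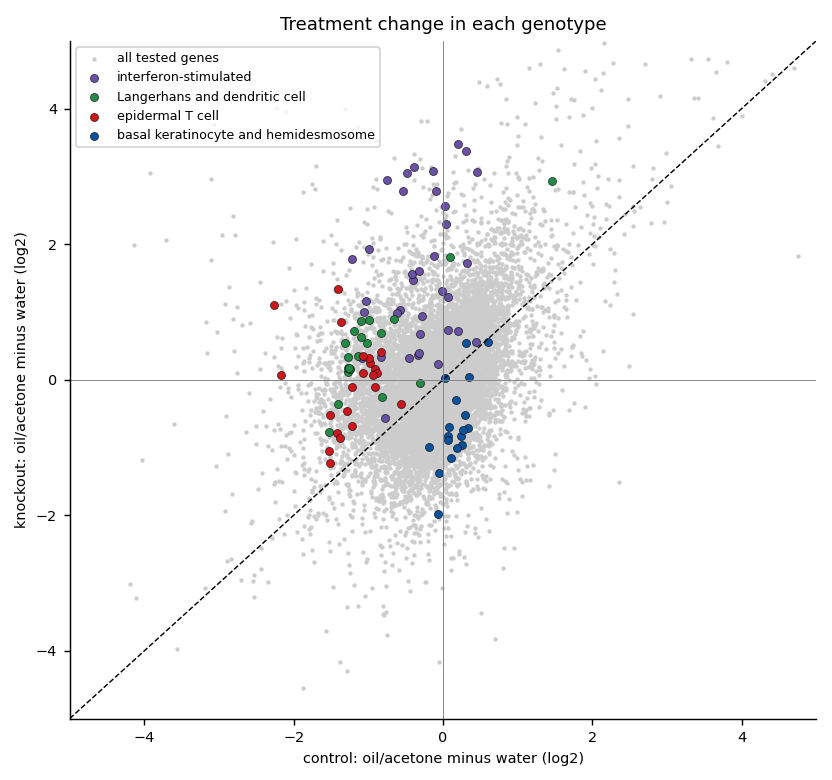
Change from water to oil/acetone (log2) in control (horizontal axis) and knockout (vertical axis) for all tested genes (grey) and members of 4 lists (colours); the dashed line marks equal change, and 10 genes lie outside the axes. All 36 interferon-stimulated and all 20 Langerhans and dendritic cell genes lie above the line, as do the 22 T cell genes, and 17 of 18 basal keratinocyte and hemidesmosome genes lie below it.

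Macrophage and neutrophil genes had positive estimates with 1 exception, with a median change of -0.38 in control and 1.06 in knockout. Of the 13 macrophage and neutrophil genes tested, 12 had a positive estimate (all genes 52.2%) and 9 an unadjusted p under 0.05 (all genes 6.16%). Without control water replicate 2 the count was 5 (all genes 3.98%) and the median 1.00, against 1.57 with all libraries. C1qb, a chain of complement C1q, measured 36.5 and 74.9 in control water, 47.8, 44 and 39.5 in control oil/acetone, 28.2 and 21.9 in knockout water and 143, 122 and 86.8 in knockout oil/acetone. The knockout oil/acetone libraries were the 3 highest, and the estimate was 2.42 ± 0.52 (SE; adjusted p = 0.354; DESeq2 adjusted p = 0.00682). Mrc1, the mannose receptor, had 2.75 ± 0.68 (SE), and Lyz2, lysozyme, crossed upward with 2.88 ± 0.72 (SE). The neutrophil receptors Csf3r and Cxcr2 had 1.06 ± 1.73 and -0.37 ± 1.66 (SE). These are dermal or blood cells in undisturbed skin.

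Vessel and red cell genes stood high in the same knockout libraries. All 14 endothelial genes had a positive estimate (median 2.21), where 52.2% of all genes did. In 10 the unadjusted p was under 0.05 (all genes 6.16%), and in 4 without control water replicate 2 (all genes 3.98%). Their summed level was 1187 to 1729 in knockout oil/acetone and 316 to 889 over the other 7 libraries, so the groups did not overlap. Pecam1, the endothelial adhesion molecule, measured 68.2 and 93.7 in control water, 93.6, 35.4 and 45 in control oil/acetone, 36.2 and 97.3 in knockout water and 212, 234 and 165 in knockout oil/acetone (estimate 2.33 ± 0.67, SE). Of 6 red cell genes, 6 were positive (median 2.44) and 5 had an unadjusted p under 0.05 (all genes 6.16%). Their summed level was 14407 to 27587 in knockout oil/acetone, 1334 and 2723 in knockout water and 3540 to 13466 over the control libraries. Hba-a2, an alpha globin, had an estimate of 2.88 ± 0.69 (SE; adjusted p = 0.354), though Hba-a1 and Hba-a2 are near-identical and share reads. The part of such cells in the interferon, macrophage and leukocyte results was not tested.

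**Figure D4:**
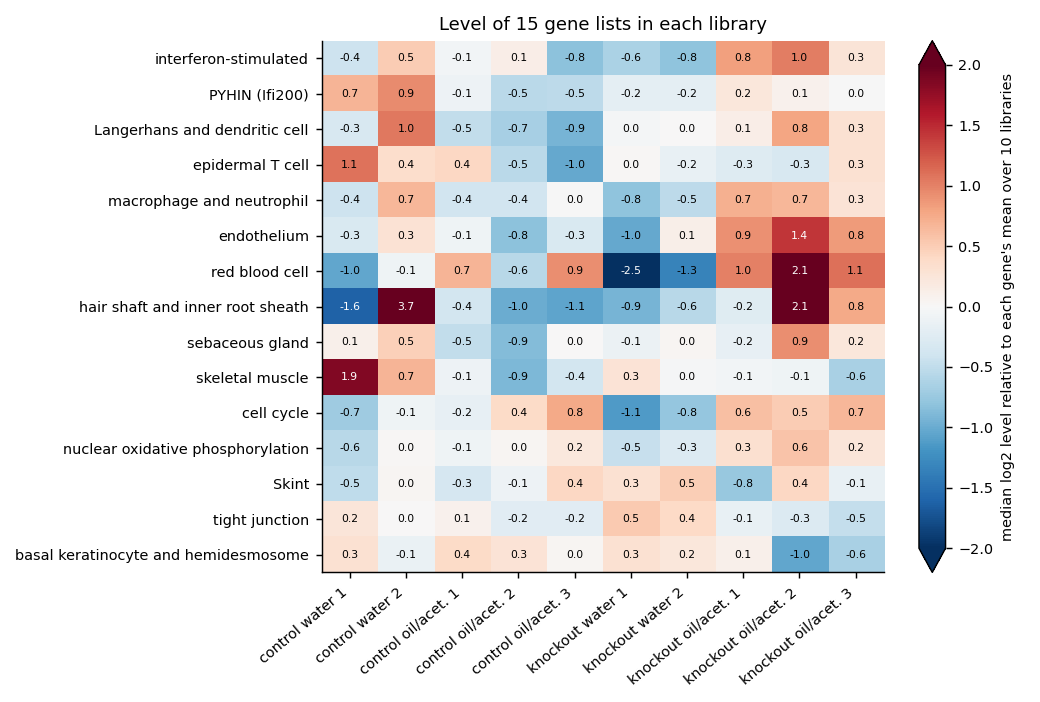
Median log2 level of the members of 15 gene lists in each library, relative to each gene's mean over the 10 libraries (colour and printed value; the colour scale ends at 2 in either direction). The endothelial, red cell, macrophage, interferon, Langerhans, cell cycle and oxidative phosphorylation lists are above 0 in all 3 knockout oil/acetone libraries. The hair shaft list is highest in control water replicate 2 (3.71) and next highest in knockout oil/acetone replicate 2 (2.12).

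Among the lists, hair shaft and inner root sheath genes had the highest median of the 32 lists and the widest range of medians when libraries were left out. Of 24 genes tested, 20 had a positive estimate, with a median of 3.87, which was the same with the 2 members that had 0 reads in a whole group set to 3 reads over that group. The median was 0.86 without control water replicate 2 and 6.10 without control water replicate 1. At an unadjusted p under 0.05 there were 10 positive genes with all libraries (all genes 6.16%) and 19 without control water replicate 1 (all genes 11.1%). Without control water replicate 2 there was 1 of 21, or 4.76%, near the 3.98% of all genes. With all libraries, 2 members had a negative estimate at an unadjusted p under 0.05 (all genes 5.68%). The members named by p went opposite ways: Krt83 had 4.04 ± 1.10 and Krt32 -1.34 ± 0.38 (SE). Krt71, a keratin of the inner root sheath, measured 0 and 3328 in control water and 36.8, 4.78 and 3.3 in control oil/acetone. In the knockout it measured 2.65 and 1.22 under water and 36.2, 595 and 172 under oil/acetone. Its estimate of 8.34 ± 3.64 (SE; adjusted p = 0.412) was the highest of all tested genes and ran from 2.49 to 14.19 with each library left out.

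Of 17 sebaceous gland genes tested, 15 had a positive estimate (all genes 52.2%) and 8 an unadjusted p under 0.05 (all genes 6.16%). The count was 5 without control water replicate 2 (all genes 3.98%), and the median was 1.40 (1.03 to 1.71 with each library left out). Plin2, which coats lipid droplets, measured 974 and 1596 in control water, 1026, 494 and 656 in control oil/acetone, 631 and 724 in knockout water and 1249, 1432 and 876 in knockout oil/acetone (estimate 1.63 ± 0.45, SE; adjusted p = 0.354). Skeletal muscle genes, from a layer under the skin, had positive estimates in 10 of 10 (all genes 52.2%), with a summed level of 1014 and 460 in control water and 213 to 324 in the other 8 libraries. Their median was 1.27, 0.74 without control water replicate 1 and 1.83 without control water replicate 2. With all libraries 4 of the 10 had an unadjusted p under 0.05 (all genes 6.16%). That count, like the median, depended on which control water library was kept.

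Genes of the basal keratinocyte and its anchorage had negative estimates with 1 exception. Hemidesmosomes tie basal cells to the basement membrane through integrins, plectins and laminin. Of 18 genes tested, 17 had a negative estimate (47.8% of all genes did), with a median of -0.93. The median change was 0.18 in control and -0.78 in knockout. In 9 the unadjusted p was under 0.05 (all genes 5.68%). That count was 2 without knockout oil/acetone replicate 2 (all genes 3.95%). It was 3 without knockout oil/acetone replicate 3 (all genes 3.53%) and 14 without replicate 1 (all genes 10.0%). The median depended on the control water level: it was -1.17 without control water replicate 1 and -0.63 without control water replicate 2.

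Lamb3, the beta chain of laminin-332, measured 12111 and 8168 in control water and 14484, 11522 and 9879 in control oil/acetone. Knockout libraries measured 13164 and 11734 under water and 10111, 4622 and 5467 under oil/acetone (estimate -1.22 ± 0.44, SE; adjusted p = 0.377). The low values were those of knockout oil/acetone replicates 2 and 3, which also held the lowest levels of the whole list (-1.04 and -0.64 relative to gene means), while replicate 1 lay at 0.11. Itga2, a collagen-binding integrin, measured 2971 and 1870 in knockout water and 1169, 385 and 474 in knockout oil/acetone, against 1037 to 2674 in control (estimate -1.92 ± 0.72, SE). Col17a1, a transmembrane collagen of the hemidesmosome, crossed downward (-1.01 ± 0.40, SE), and Trp63, the transcription factor of stratified epithelium, had -0.80 ± 0.34 (SE). The basal keratins had smaller estimates: Krt5 had -0.31 ± 0.43 and Krt14 -0.06 ± 0.37 (SE).

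Tight junction genes, which seal the outer living layers, gave negative estimates in 14 of 15 (median -0.58), where 47.8% of all genes did. The unadjusted p was under 0.05 in 7 (all genes 5.68%), and in 2 without control water replicate 2 (all genes 1.84%). Ocln, occludin, measured 975 and 715 in control water, 878, 747 and 600 in control oil/acetone, 1409 and 1446 in knockout water and 791, 673 and 481 in knockout oil/acetone. Knockout water was the high group, and the estimate was -0.98 ± 0.34 (SE; adjusted p = 0.373). Cldn4, a claudin, followed the same order with 18579 and 15951 in knockout water and 2414 to 7512 in knockout oil/acetone (estimate -1.19 ± 0.57, SE). Cldn1, the main barrier claudin of skin, had -0.58 ± 0.30 (SE).

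Skint genes encode keratinocyte membrane proteins, of which Skint1 selects epidermal gamma-delta T cells in the thymus. Of 11 tested, 10 had a negative estimate (all genes 47.8%) and 4 had an unadjusted p under 0.05 (all genes 5.68%). The median was -0.79, -1.17 without knockout oil/acetone replicate 2 and -0.47 without control oil/acetone replicate 3. Skint7 measured 1072 and 1015 in control water, 939, 886 and 1170 in control oil/acetone, 1298 and 1071 in knockout water and 336, 516 and 451 in knockout oil/acetone. The 3 last were the lowest of the 10, with an estimate of -1.39 ± 0.29 (SE; adjusted p = 0.354; DESeq2 adjusted p = 0.00881). Skint5 had -1.87 ± 0.59 and Skint6 -1.46 ± 0.42 (SE), while Skint1 had -0.63 ± 0.36 and Skint3 -0.07 ± 0.60 (SE). The Skint genes are close paralogs and may share reads.

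Of the 24 genes of ceramide and cornified lipid synthesis tested, 19 had a negative estimate, against 47.8% of all genes. The median was -0.27, and -0.01 without control water replicate 1. At an unadjusted p under 0.05 there were 4 negative genes (all genes 5.68%) and 2 positive ones (all genes 6.16%). Aloxe3, a lipoxygenase that prepares ceramides for the cornified envelope, crossed downward: control libraries measured 662 and 449 under water and 1143, 798 and 872 under oil/acetone, and knockout libraries 1095 and 1018 under water and 691, 863 and 439 under oil/acetone. Its estimate was -1.49 ± 0.40 (SE; adjusted p = 0.354). Abca12, the lipid transporter of lamellar granules, crossed downward with -0.84 ± 0.25 (SE). Of the 42 cornified envelope genes tested, 3 positive ones had an unadjusted p under 0.05, near the 6.16% of all genes. The negative count was 0 (all genes 5.68%).

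The wound keratins Krt6a and Krt6b stood highest in knockout oil/acetone. Krt6a, a keratin switched on in injured epidermis, measured 970 and 4825 in control water, 3019, 2736 and 2108 in control oil/acetone, 1287 and 1506 in knockout water and 7530, 10850 and 9483 in knockout oil/acetone. The knockout oil/acetone libraries lay above all others, with an estimate of 2.46 ± 0.71 (SE; adjusted p = 0.354; DESeq2 adjusted p = 0.00881). The estimate rested on the control water level: it was 3.62 without control water replicate 1 (limma adjusted p = 0.00689) and 1.30 without control water replicate 2 (limma adjusted p = 0.852). Krt6b, near-identical in sequence to Krt6a, measured 13.5 and 562 in control water, 142, 83.2 and 505 in control oil/acetone, 6.17 and 15.8 in knockout water and 635, 8341 and 4085 in knockout oil/acetone. Its estimate was 6.97 ± 2.03 (SE; adjusted p = 0.354), 9.61 without control water replicate 1 and 4.33 without control water replicate 2. Their partners Krt16 (-0.04 ± 0.70, SE) and Krt17 (0.79 ± 0.47, SE) had smaller ones. Over the 20 wound and antimicrobial genes tested the median was 0.73, and -0.24 without control water replicate 2.

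Cell cycle genes had a positive median change in each genotype, 0.70 in control and 1.57 in knockout. Of 39 tested, 37 were positive (median 0.90, from 0.53 to 1.14 with each library left out), and 12 had an unadjusted p under 0.05 (all genes 6.16%). The count was 3 without control water replicate 2, or 7.69% against 3.98% of all genes, and 25 without control water replicate 1 (all genes 11.1%). Mcm2, a subunit of the replicative helicase, measured 515 and 685 in control water, 606, 675 and 1017 in control oil/acetone, 330 and 440 in knockout water and 1043, 991 and 1159 in knockout oil/acetone (estimate 1.15 ± 0.34, SE; adjusted p = 0.354). The control treatments overlapped and the knockout treatments did not. Mki67, the proliferation antigen, had 0.76 ± 0.41 (SE), with 1281 and 1296 in knockout water and 3430 to 5637 in knockout oil/acetone.

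In the gasdermin, inflammasome and interleukin-1 family, 17 of 27 genes tested had a positive estimate (median 0.34), against 52.2% of all tested genes. At an unadjusted p under 0.05 there were 4 positive (all genes 6.16%) and 2 negative genes (all genes 5.68%). Without control water replicate 2, 13 of the 27 were positive and the median was -0.0039; without control water replicate 1 it was 0.79. Ninj1, the membrane protein that ruptures dying cells downstream of gasdermin pores, crossed upward: 460 and 548 in control water, 436, 388 and 382 in control oil/acetone, 377 and 325 in knockout water and 560, 575 and 466 in knockout oil/acetone. Its estimate was 0.92 ± 0.25 (SE; adjusted p = 0.354). Gsdmd, the gasdermin cut by inflammatory caspases, had 1.59 ± 0.57 (SE) and Casp1 1.16 ± 0.50 (SE), both higher in every knockout oil/acetone library than in either knockout water library. The receptors had negative estimates, with Il1r2, the decoy receptor, at -0.93 ± 0.32 (SE) and Il1r1, the signalling one, at -0.74 ± 0.31 (SE).

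**Figure D5:**
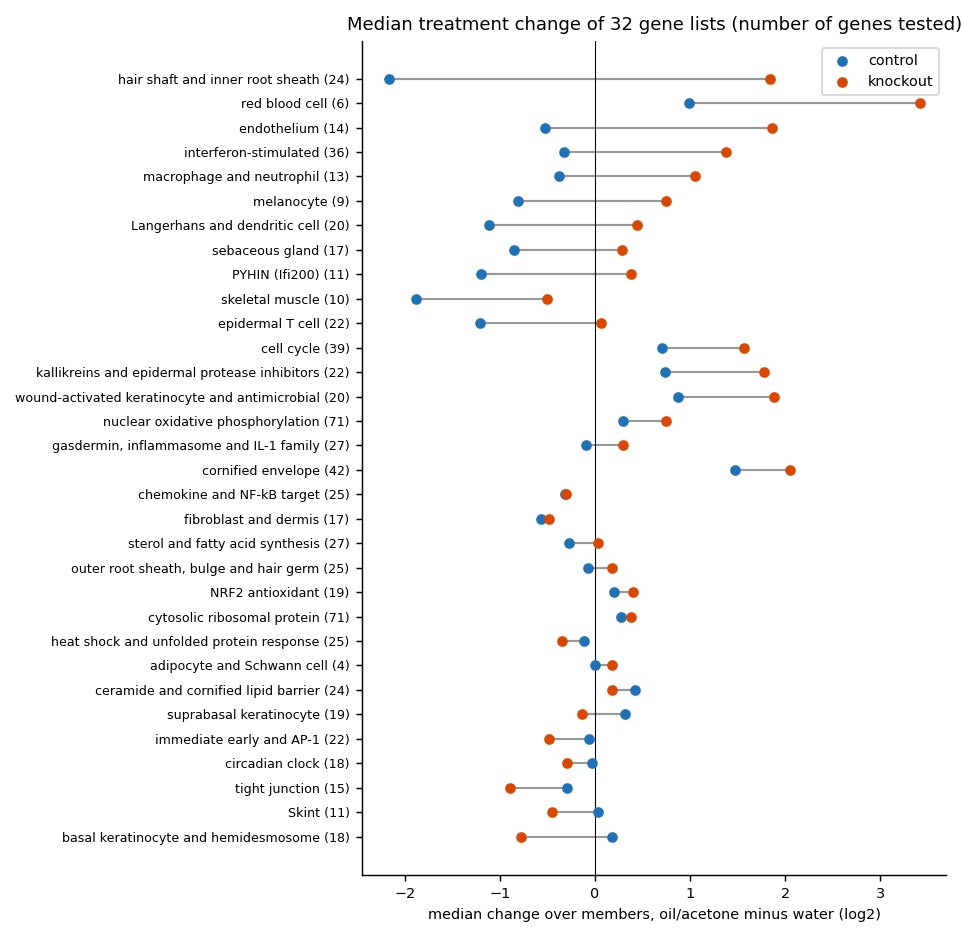
Median change from water to oil/acetone (log2, horizontal axis) over the tested members of each of 32 gene lists, in control (blue) and knockout (orange), sorted by the median interaction estimate. The points are farthest apart for hair shaft and inner root sheath (-2.17 and 1.84) and lie in reversed order for basal keratinocyte and hemidesmosome (0.18 and -0.78); points carry no error bar, and the lists share genes and libraries.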

How the data were processed

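The submitters' processing notes name the genome GRCm38 (mm10) and the tools Trimmomatic 0.38, DESeq2 1.26.0 and featureCounts 2.0.0. Aligner, annotation release and strandedness: not given in the sources used here. The deposited values are a normalised read signal per gene made by the authors, in 1 file per library. Dividing by the smallest step in each library gave whole numbers for 100% of values (tolerance 0.1 read), which recovered whole reads for edgeR 4.0.16, DESeq2 1.42.0 and limma-voom. Files listed 16014 to 17983 genes; 1938 autosomal genes not listed in all 10 files were left out. All 17983 identifiers were found in the GENCODE annotation of GRCm38.

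Values were rescaled by median ratios and fitted with limma 3.58.1 (R 4.3.3; lmFit, contrasts.fit, eBayes with a trend; two-sided) as log2(value + 1) in 1 model of 4 group means without covariates. For genes with low values the pseudocount shrinks the fold change. Adjusted p is Benjamini-Hochberg over all tested genes. Replicate pairs differed by more than counting noise (chi-square per gene 11.4 to 86.1), so no library was counted as a duplicate. The analysis was tested on simulated data.

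Named genes were protein-coding, with a group mean of 50 or more and no clone name: per direction the 12 with the lowest p and an estimate of 1 or more in size, and the 6 largest crossing genes; the 2 with the lowest p in each of 32 lists; and the targets. Other list members and the genes called alone were chosen after their values were seen. The lists and the comparison itself were chosen with earlier results of these data known. Alternatives covered pseudocount, filter, scaling, chromosomes, variance trend, test, replicate block and leaving out each library. One member of the interferon list is not reported here by name.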

Additional observations from a re-analysis of the deposited data

Results flagged for a closer look

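In 30 of the named genes every library of 1 treatment lay on 1 side of the other treatment in control and on the opposite side in knockout. The interaction estimate (log2) is given for each. Limma's adjusted p was 0.298 to 0.376 for these 30, so none passed the test of the difference; DESeq2 called 23 of them. The same was found in 2.37% of all tested genes. Of the 30, 12 were named by a rule that asks for this order. The others were named by a low p for the same contrast in the same libraries, which favours it. Their number therefore describes the choice of genes, tests nothing and cannot be set against the share of all genes.

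Of the 21 with lower control and higher knockout levels under oil/acetone, those also among the lowest p were Mgp (3.64), Mndal (1.99), Lsp1 (1.73), Rgs14 (2.03), Il3ra (1.81), Vim (1.61), Ptpn6 (1.37), Apol7e (3.04), Ifi203 (1.72) and Pstpip1 (2.09). Genes of immune cells and their mediators were Ly6c2, a surface protein of monocytes (3.90, with 5.41 without control water replicate 1 and 2.39 without control water replicate 2), Gzmc (3.37), Zbp1 (2.92), Lyz2 (2.88), Ccl5 (2.80), Ccl6 (2.76), Ctss (1.97) and Cd52 (1.87). The remaining ones were Tnni2, a troponin of fast muscle (1.59), Kit, a receptor of pigment and mast cells (1.55), and Ninj1 (0.92).

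The 9 with higher control and lower knockout levels were Adh1 (-1.59), Bmp3, a member of the bone morphogenetic protein family (-1.59), Cfap300, a cilium protein (-1.56), Aloxe3 (-1.49), Sema3d, a secreted guidance protein (-1.41), Clca3a2 (-1.38), Cyp39a1 (-1.31), Wdfy3, an autophagy adaptor (-1.06), and Abca12 (-0.84).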

How the results depend on the processing

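Limma called 0 genes under every change of pseudocount, filter, scaling, chromosomes and trend. DESeq2 called 163 and limma-voom with quality weights 2; leaving out 1 library gave 0 to 73, with 73 without control water replicate 1 and 1 without control water replicate 2. The count of positive genes at an unadjusted p under 0.05 (952) was 1635 with limma-voom and 603 to 1703 with 1 library left out. The negative count (877) was 492 after scaling to equal totals, 1457 with the replicate block, 1770 with limma-voom and 283 to 1620 with 1 library left out. Genes crossing upward (236) numbered 274 to 966 and those crossing downward (130) 155 to 1176 with 1 library left out, where fewer libraries have to be in order; scaling to equal totals left 50 crossing downward. The cause of the other shifts was not tested.

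The estimate of Gsdma3 (-0.09), near 0 reads in the knockout, was 0.30 with a pseudocount of 5 and -1.17 to 0.99 with 1 library left out (0.38 without control oil/acetone replicate 3, 0.99 without control water replicate 1, 0.06 without knockout oil/acetone replicate 1 or replicate 3, 0.84 without knockout water replicate 1). That of Gsdma (0.49) was -0.21 to 1.19, and -0.21 without control water replicate 2. The other 86 of 88 named genes kept their sign in all 10 fits that left out a library. These genes were chosen by p or size of estimate in the same libraries, so the kept sign follows largely from that choice. With the replicate number as a block, 0 genes were called and 2837 had an unadjusted p under 0.05. The libraries share only a number: correlations of same-numbered deviations ran from -0.103 to 0.452, and among the oil/acetone libraries only control replicate 1 correlated best with its own number.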
